A study of Saccharomyces cerevisiae with 3 samples.

Results

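The genes of the yeast proteasome were followed in a comparison of cells producing War1K762R with cells producing War1. The members were the genes whose symbol in the platform's probe table is SCL1 or is PRE, PUP, RPN or RPT followed by a number, which includes the regulator gene RPN4. These were 34 of 5543 genes with a symbol on the array, and each had 2 spots. The core particle gave 14 members, the base of the regulatory particle 10 and its lid 8. RPN14, which encodes an assembly chaperone, and RPN4 completed the set.

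The proteasome is the protease that degrades proteins tagged with ubiquitin. Its core particle is a barrel of alpha and beta rings with the proteolytic sites inside. A base of ATPases, which unfolds substrates and opens the barrel, and a lid, which removes ubiquitin, cap its ends. In yeast most of these genes are activated together by the transcription factor Rpn4, which the proteasome itself degrades, so that the transcripts are known to rise together when proteasome activity is short.

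Each of 3 two-colour arrays carried cDNA of 1 culture of each strain, and the submitters describe the arrays as biological repeats, 1 of them a dye swap. Both strains were W303 cells with WAR1 behind the GAL1 promoter, which galactose switches on. One made War1, a zinc cluster transcription factor of the weak acid response, and the other War1K762R, named for an exchange of lysine for arginine. Both grew at 30 °C in rich medium with 2% raffinose to an OD600 of 0.8 and were collected 1 h after 2% galactose was added. No acid is named in the labels, and the sources used here do not say whether the chromosomal WAR1 was present.

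Values are log2 ratios of War1K762R over War1, centred on the median of all spots of an array and averaged over the spots of a gene. A value above 0 means more transcript with War1K762R, relative to the array's median. The direction is likely rather than certain, because it assumes a scanner that divided Cy5 by Cy3, and under the opposite formula every sign below turns. By the source names, Cy5 marked the War1K762R cDNA of replicates 1 and 2 and the War1 cDNA of replicate 3. The treatment text of 1 channel of replicates 1 and 2 conflicts with its source name, which is a further doubt about the direction of these arrays. Of 3579 genes measured on all 3 arrays, 13 (0.363%) had an adjusted p under 0.05 in limma, 12 of them higher and 1 lower. The split was 3 to 1 with centring on the genes tested, and 67 to 50 over genes measured on at least 2 arrays. The median mean ratio of the 3579 genes measured on all 3 arrays was 0.05. The War1 target PDR12, which encodes an exporter of carboxylate anions, was among the 13 genes that passed, at 0.96 ± 0.45 (SD, n = 3, limma, adjusted p = 0.0461). WAR1, whose spots cannot tell the forms apart, was at 0.35 ± 0.34 (adjusted p = 0.32).

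Proteasome transcripts were well covered. In replicates 1 and 2 all 68 member spots had a value, and in replicate 3 there were 66, or 97.1%, against 61.8% of all spots with a gene name. As a result 33 of 34 members, or 97.1%, were measured on all 3 arrays, against 64.6% of all genes. The exception was RPN14, which was read at −0.41 and −0.14 in replicates 1 and 2 and had no value in replicate 3. In a fit over genes on at least 2 arrays its mean was −0.27 (limma, adjusted p = 0.421).

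None of the 33 proteasome genes passed the test, and with 0.363% of all genes passing, that count does not set them apart. Their mean ratios lay between −0.28 for PRE6 and 0.39 for PRE8, the latter a 1.31-fold difference. The smallest adjusted p was 0.268 (limma, 0 of 33 genes passed), and 1 gene, PRE8, had an unadjusted p under 0.05, where 13.8% of all genes tested did. The 95% intervals of the 33 means lay between −0.56 and 0.71, so none reached a log2 ratio of 1 in either direction. In ratios simulated for all 3579 genes with their own spread, the same test found 78 of 100 genes shifted by 1 and 96 of 100 shifted by 2, with 4 false calls. Shifts as small as the members' means were not simulated, so these rates do not tell how many of that size would be found.

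The members' means leaned to the lower side. Their median was −0.04 against 0.05 for all genes tested, and 24 of 33 lay below the latter. This gap of −0.093 was −0.044 against all genes measured on at least 2 arrays, whose median was near 0, with 22 of 33 members below it. With replicate 3 turned once more the gap was −0.046. On the arrays their medians were −0.02, −0.07 and −0.09 in replicates 1, 2 and 3, where all genes tested had 0.07, 0.06 and 0.01. Of the 33 genes 12 (36.4%) were below 0 on all 3 arrays, against 13.5% of all genes tested. Another 3 (9.09%) were above 0 on all 3, against 24.7%, and 18 changed sign between arrays. With each array centred on the genes tested the counts were 16 below and 1 above, against 18.6% and 18.7% of all genes. These are descriptions with no test over the set.

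**Figure D1:**
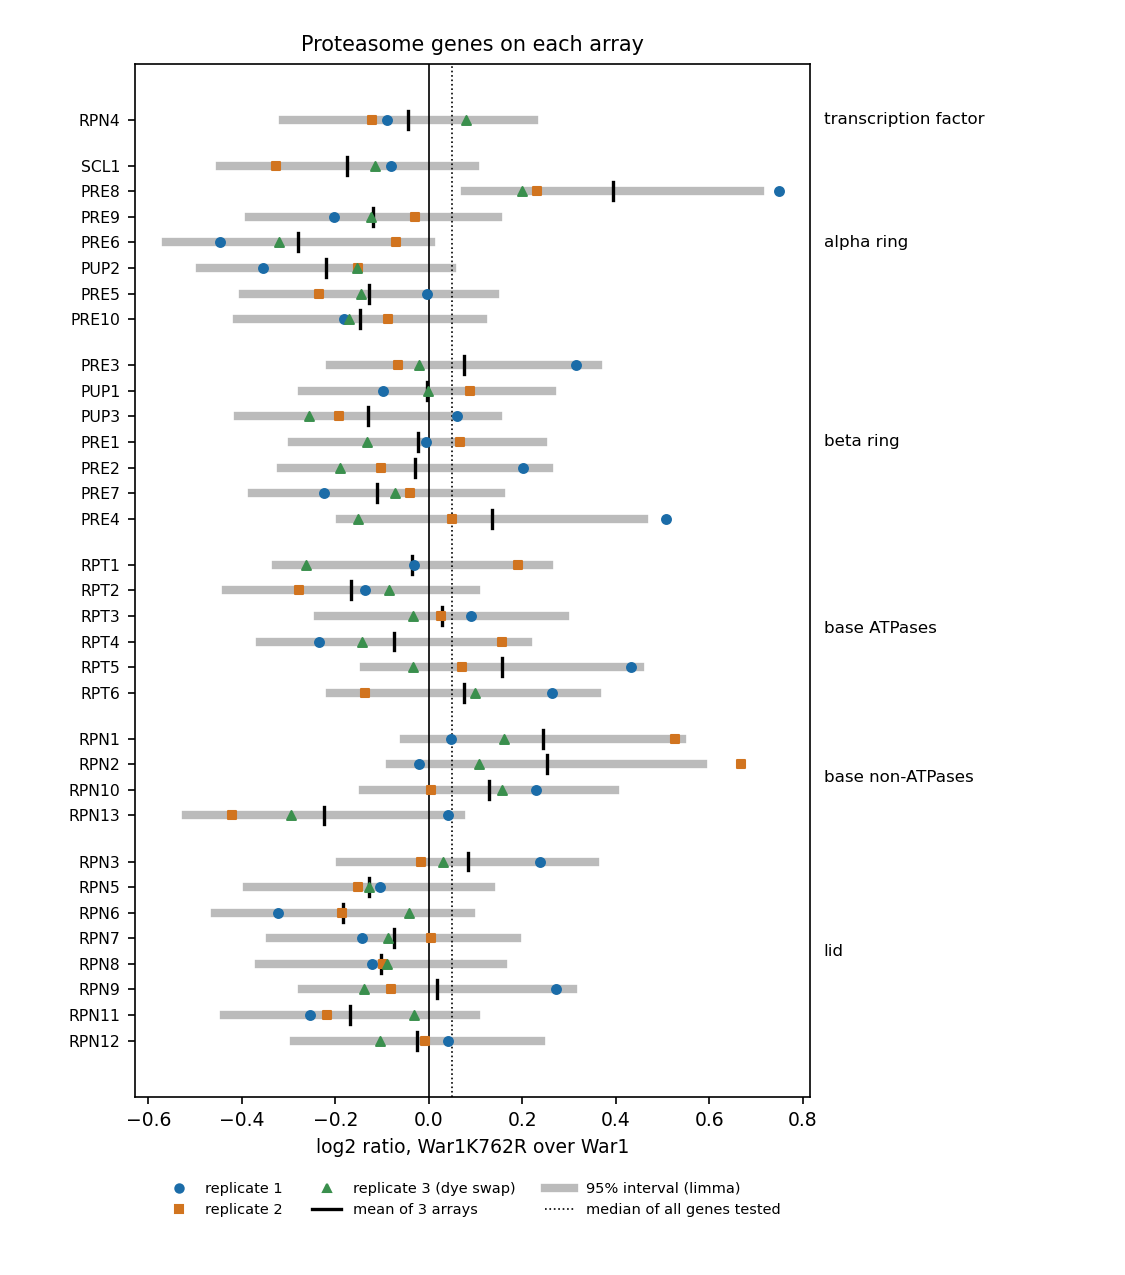
Log2 ratio of War1K762R over War1 (horizontal axis) for the 33 proteasome genes measured on all 3 arrays (vertical axis, by subcomplex). Points are the 3 arrays, black bars their mean, grey bars the 95% limma interval and the dotted line the median of all genes tested at 0.05. In the alpha ring 6 genes sit left of 0 on every array and PRE8 sits right of it.

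RPN4 (YDL020C), the activator of the family, did not stand out. Its ratios were −0.09, −0.12 and 0.08 in replicates 1, 2 and 3. The mean was −0.04 ± 0.11 (SD, n = 3, 95% interval −0.31 to 0.22, limma, adjusted p = 0.902), at rank 2479 of 3579 from the highest. The dye swap had the opposite sign to the other arrays, and all 3 values lay close to 0.

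The alpha ring, the outer ring of the core particle that gates the entry of substrates, showed the most uniform signs. Of its 7 genes 6 were below 0 on all 3 arrays and 1, PRE8, was above 0 on all 3. PRE6 (YOL038W) had the lowest mean of all members, with ratios of −0.45, −0.07 and −0.32 and a mean of −0.28 ± 0.19 (limma, adjusted p = 0.363). PUP2 (YGR253C) followed with −0.35, −0.15 and −0.15, a mean of −0.22 ± 0.12 (adjusted p = 0.442). Both were lowest in replicate 1, and their 95% intervals, −0.56 to 0.004 and −0.49 to 0.05, still included 0.

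SCL1 (YGL011C), another alpha subunit gene, had ratios of −0.08, −0.33 and −0.11, lowest in replicate 2. The values of PRE10 (YOR362C) were closest together, at −0.18, −0.09 and −0.17. PRE5 (YMR314W) was at −0.003, −0.23 and −0.15, so that its sign in replicate 1 is not separated from 0. PRE9 (YGR135W), which encodes the alpha subunit that yeast can live without, was at −0.20, −0.03 and −0.12. The means of these 4 genes ran from −0.17 for SCL1 to −0.12 for PRE9, with adjusted p from 0.538 to 0.681 (limma).

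PRE8 (YML092C), which encodes the remaining alpha subunit, had the opposite sign. Its ratios were 0.75, 0.23 and 0.20 in replicates 1, 2 and 3. All 3 were positive, and replicate 1 was the highest value of any member on any array. The mean of 0.39 ± 0.31 corresponds to 1.31-fold and ranked 224 of 3579. Without replicate 1 the mean was 0.22 and its unadjusted limma p 0.19, no longer under 0.05. The 95% interval over the 3 arrays was 0.08 to 0.71, and PRE8 did not pass after adjustment (limma, adjusted p = 0.268). Both spots of PRE8 were positive on every array, at 0.71 and 0.79 in replicate 1, 0.18 and 0.28 in replicate 2, and 0.10 and 0.30 in replicate 3.

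The beta ring holds the active sites, and its 7 genes scattered about 0. Those of the active subunits were PRE3 (YJL001W, caspase-like) with ratios of 0.31, −0.07 and −0.02, PUP1 (YOR157C, trypsin-like) with −0.10, 0.09 and −0.002, and PRE2 (YPR103W, chymotrypsin-like) with 0.20, −0.10 and −0.19. Each of these 3 genes changed sign between arrays, and their means were 0.08, −0.004 and −0.03. The highest mean was that of the structural subunit gene PRE4 (YFR050C) at 0.14 ± 0.34, made of 0.51, 0.05 and −0.15. Its value in replicate 1 lay apart from the other arrays. PUP3 (YER094C) had the lowest mean, −0.13 ± 0.17, from 0.06, −0.19 and −0.26.

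PRE7 (YBL041W) was below 0 on every array with −0.22, −0.04 and −0.07, and PRE1 (YER012W) had a mean of −0.02. The beta ring medians were 0.06, −0.04 and −0.13 in replicates 1, 2 and 3, so the sign turned between replicate 1 and the others. In the dye swap all 7 beta ring genes were negative, as were 26 of 33 members and 1750 of 3579 genes tested. The spots of PUP1 and of PRE3 differed in sign there. The smallest adjusted p in this ring was 0.668 (limma).

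The base is built on a ring of ATPases encoded by RPT1 to RPT6. The means of these genes ran from −0.17 for RPT2 to 0.16 for RPT5, with a median of −0.004 against 0.05 for all genes tested. RPT2 (YDL007W) was negative on all arrays with −0.14, −0.28 and −0.09, and was the only ATPase gene with 1 sign throughout. RPT5 (YOR117W) had 0.43, 0.07 and −0.03, highest in replicate 1 and near 0 in the others. RPT1, RPT3, RPT4 and RPT6 had means of −0.04, 0.03, −0.07 and 0.08, each with both signs among the arrays.

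Of the other base genes, RPN1 and RPN2 encode its large scaffold proteins and RPN10 and RPN13 ubiquitin receptors. RPN2 (YIL075C) had ratios of −0.02, 0.67 and 0.11 and a mean of 0.25 ± 0.37 (limma, adjusted p = 0.468). RPN1 (YHR027C) had 0.05, 0.53 and 0.16 and a mean of 0.24 ± 0.25 (adjusted p = 0.435). The scaffold genes were both far higher in replicate 2 than on the other arrays, and without it their means were 0.04 and 0.10. These were also the highest values of any member in replicate 2.

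The receptor genes differed in the sign of their means. RPN10 (YHR200W) had 0.23, 0.004 and 0.16, a mean of 0.13. Its spots in replicate 2 were at 0.11 and −0.10, so that its sign there is not separated from 0. RPN13 (YLR421C) had 0.04, −0.42 and −0.29, and its mean of −0.23 ± 0.24 was the lowest of the base (limma, adjusted p = 0.463). The value of RPN13 was above 0 in replicate 1 and well below it on the other arrays.

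Among core, base and lid, the lid genes varied least. Their means ran from −0.18 to 0.08, with an SD across the 8 genes of 0.093 against 0.212 for all genes tested. RPN11 (YFR004W), which encodes the metalloprotease that cuts ubiquitin from substrates, had ratios of −0.25, −0.22 and −0.03. Its inactive partner RPN8 (YOR261C) had −0.12, −0.10 and −0.09, the last from spots at −0.02 and −0.16. Both genes were below 0 on each array, at means of −0.17 ± 0.12 and −0.10 ± 0.02, and did not pass (limma, adjusted p = 0.548 and 0.722).

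The other 6 lid genes encode structural subunits. RPN6 (YDL097C) had the lowest lid mean, −0.18 ± 0.14, from −0.32, −0.19 and −0.04. RPN5 (YDL147W) was at −0.11, −0.15 and −0.13, averages that were nearly the same on all arrays. Its 2 spots lay further apart within each array, as at −0.04 and −0.26 in replicate 2. RPN3 (YER021W) had the highest mean, 0.08 ± 0.13, from 0.24, −0.02 and 0.03. RPN7, RPN9 and RPN12 had means of −0.08, 0.02 and −0.02 with both signs among the arrays. In all, 4 of 8 lid genes were below 0 on all arrays and 0 of 8 above it.

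The rule asks how core, base and lid compare. The medians of the means were −0.12 for the core, 0.05 for the base and −0.09 for the lid. On single arrays the core median lay below the base median in each case, by −0.09, −0.12 and −0.11 in replicates 1, 2 and 3. The base median lay above the lid median by 0.16, 0.14 and 0.05. Core and lid kept no order, with differences of 0.07, 0.02 and −0.05. Taken from the medians of the genes' means, core minus base was −0.17, while the mean of the 3 array differences was −0.10. Without replicate 1 the base median of the means was 0.0008, and core minus base from such medians was −0.10. With replicate 3 turned once more the core median was −0.017 and the lid median −0.030. No p is given for these differences, since 3 arrays are few for such a test and the members were chosen with earlier results of these data known.

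**Figure D2:**
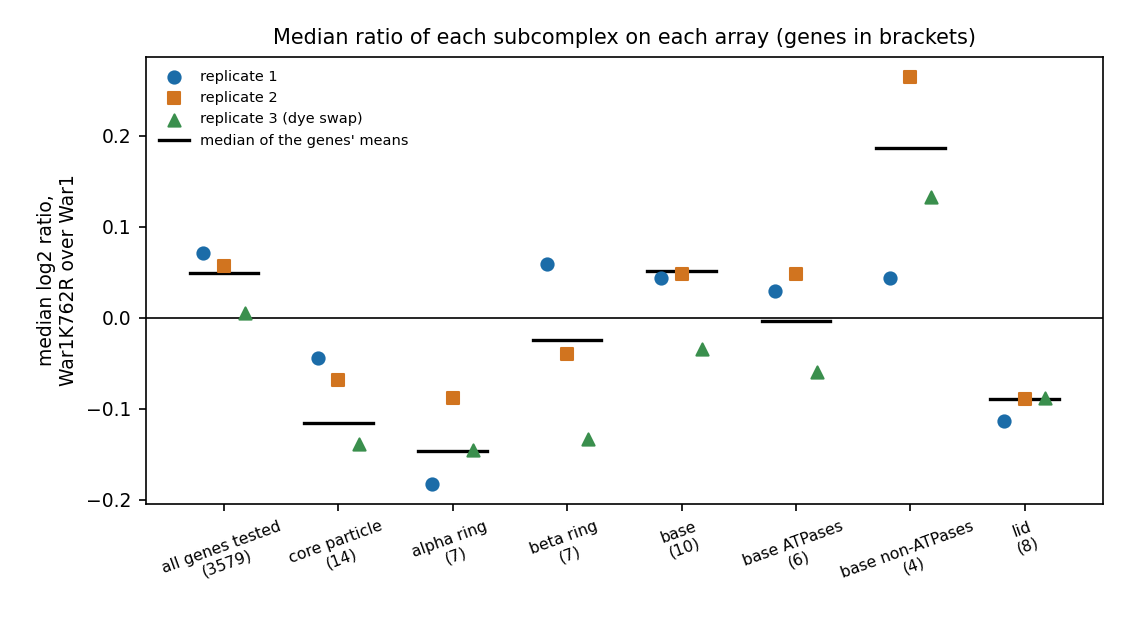
Median log2 ratio of War1K762R over War1 (vertical axis) of all genes tested and of each subcomplex (horizontal axis, number of genes in brackets), with a point for each array and a black bar for the median of the genes' means. Alpha ring and lid medians are below 0 on all 3 arrays, while the beta ring, the base and the base ATPases have both signs.

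The gap between core and base was not spread evenly. Within the core the alpha ring had a median of −0.15 and the beta ring of −0.02. The alpha ring was lower by −0.24 in replicate 1 and by −0.05 and −0.01 in replicates 2 and 3, so this difference came mostly from 1 array. Within the base the non-ATPase genes had a median of 0.19 and the ATPases of −0.004, with differences of ATPases minus others of −0.01, −0.22 and −0.19. The cumulative plot shows the base curve lying along that of all genes and the core and lid curves to its left.

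**Figure D3:**
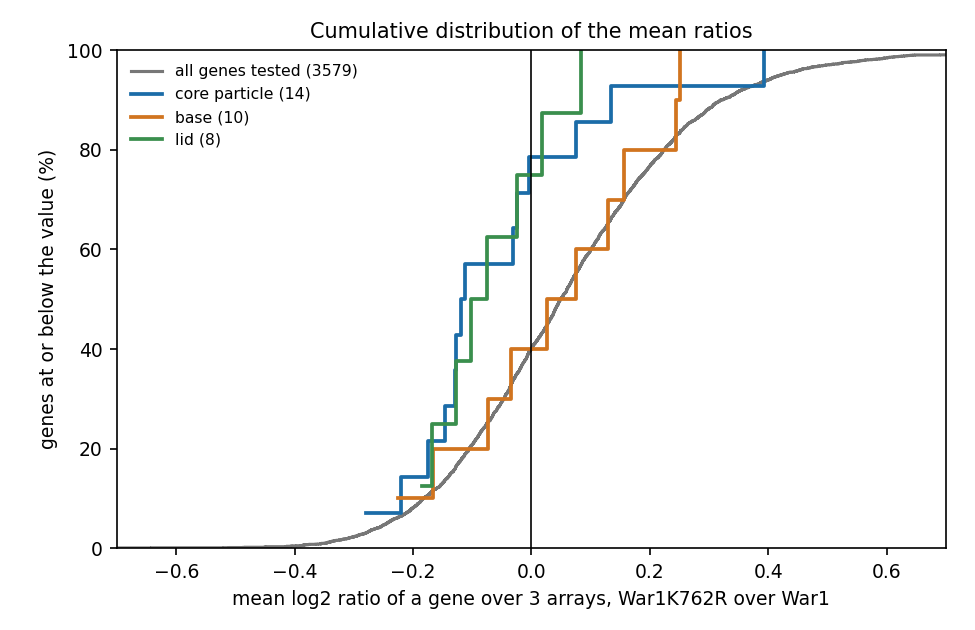
Share of genes at or below a mean log2 ratio (vertical axis, percent) against that ratio (horizontal axis, War1K762R over War1) for all 3579 genes tested and for the core, base and lid. The core reaches 78.6% and the lid 75% below 0, the base 40%, and all genes tested 40.0%.

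Members differed from each other less than genes at large. The SD of the 33 means was 0.153 against 0.212 for all genes tested, and the median SD of a gene between arrays was 0.134 against 0.199. This was not particular to the members, as the other proteasome and ubiquitin genes described below had 0.159 and 0.134. Across the 33 members the arrays correlated at a Pearson's r of 0.225 between replicates 1 and 2 (Spearman's rho 0.283). The dye swap correlated with replicate 1 at 0.403 (rho 0.283) and with replicate 2 at 0.478 (rho 0.347). In the same order r was 0.311, 0.179 and 0.252 over all genes tested. These are descriptions across genes, which are not independent replicates, and the genes of an array share its hybridisation.

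The 2 spots of a gene show how finely such small ratios were read. Across members with both spots measured they correlated with r of 0.956, 0.788 and 0.358 in replicates 1, 2 and 3. The median gap between them was 0.063, 0.10 and 0.126. Disregarding sign, the mean ratios of 16 of 33 members were smaller than the gap of replicate 3. RPN6 had the widest gap there, with spots at 0.15 and −0.24, and the spots of RPT2 (0.07 and −0.24) and RPN11 (0.06 and −0.12) also differed in sign.

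Of the 12 members below 0 on all arrays, 7 had both spots below 0 throughout. These were SCL1, PRE6, PUP2, PRE10, PRE7, RPN5 and RPN8, or 21.2% of 33 members against 7.91% of the 3237 genes with all 6 values. PRE8 was the 1 member with all 6 spot values above 0 (3.03%, against 16.1%).

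**Figure D4:**
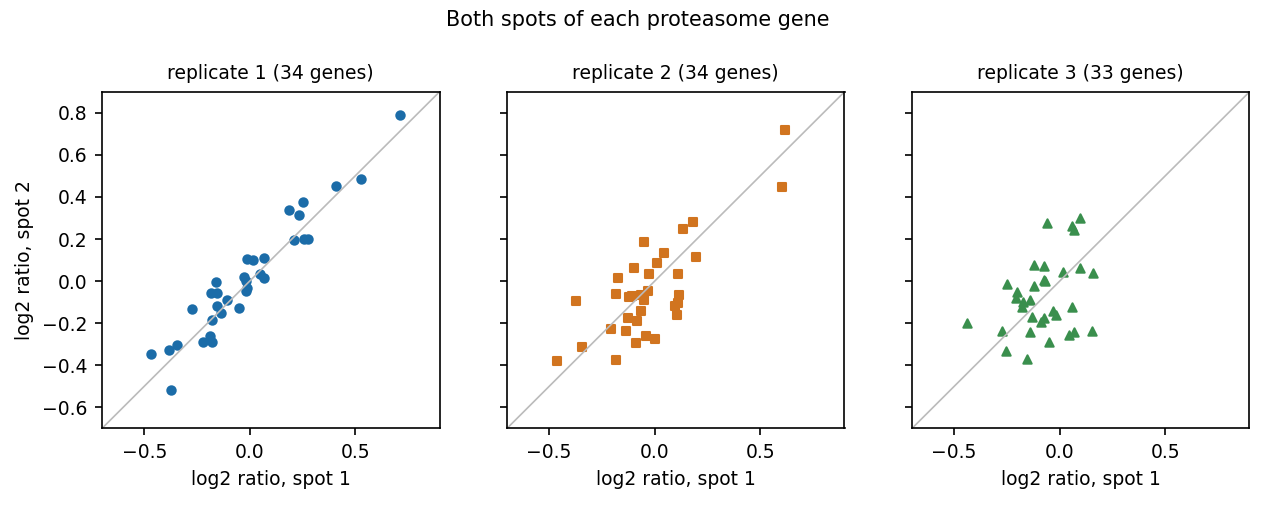
Log2 ratio of War1K762R over War1 of the first spot (horizontal axis) against the other spot (vertical axis) of each proteasome gene, with a panel for each array and the line of equality in grey. Points hug the line in replicate 1 (r = 0.956) and scatter about it in replicate 3 (r = 0.358).

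Genes that build, serve or regulate the proteasome were described alongside, from 5 lists with 42 genes, of which 33 were measured on all 3 arrays. Again 0 of 33 passed (limma), while an unadjusted p under 0.05 was found for 2 (6.06%), UBA1 and POC4. Of all genes tested 0.363% passed and 13.8% had such an unadjusted p. Their median was 0.02, with 8 genes above and 4 below 0 on all arrays. Against the background of 24.7% and 13.5%, these shares were 24.2% and 12.1%.

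Assembly factors had a median of 0.11 over 8 genes. POC4 and NAS2, chaperone genes for the alpha ring and the base, were the lowest. POC4 had ratios of −0.44, −0.30 and −0.19, a mean of −0.31 ± 0.12 (limma, adjusted p = 0.302), and NAS2 had a mean of −0.24. NAS6, another base chaperone gene, was the highest at 0.20 ± 0.06. UMP1, which encodes the chaperone that completes the core particle, was positive throughout with 0.20, 0.15 and 0.05.

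Of 5 genes for proteasome-bound proteins, the activator gene BLM10 was highest at 0.16 ± 0.06 and the deubiquitinase gene UBP6 lowest at −0.09 ± 0.11. Among 6 genes of shuttle factors and the Cdc48 complex, which hands ubiquitinated proteins on, CDC48 itself was positive on each array (0.17, 0.24 and 0.21). Its cofactor gene SHP1 was negative on each (−0.31, −0.32 and −0.08). Neither passed (limma, adjusted p = 0.45 and 0.412).

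Ubiquitin supply gave the smallest adjusted p of these lists. UBA1, the gene of the ubiquitin-activating enzyme, had ratios of 0.41, 0.30 and 0.42 and a mean of 0.38 ± 0.07 (limma, adjusted p = 0.214). The values lay close together on all arrays, dye swap included. The polyubiquitin gene UBI4 was split, at 0.33, 0.26 and −0.60. The conjugating enzyme gene UBC5 was lowest of its list at −0.20 ± 0.35. RPL40A and RPL40B, which encode the same ubiquitin fusion protein and may not be separated by the spots, were at −0.03 and 0.21.

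In the list on Rpn4 turnover and regulators, 0 of 5 genes kept 1 sign on all arrays. Of all genes tested 24.7% were above and 13.5% below 0 on all 3. The other 2 listed genes had no value in replicate 3. UBR2 was at −0.31 and −0.68 and PDR3 at 0.23 and −0.28 in replicates 1 and 2. MUB1, whose product works with the ubiquitin ligase that marks Rpn4 for degradation, had the highest mean, 0.26 ± 0.47, from −0.22, 0.30 and 0.71. YAP1, which encodes an oxidative stress regulator, was lowest at −0.08 ± 0.18.

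**Figure D5:**
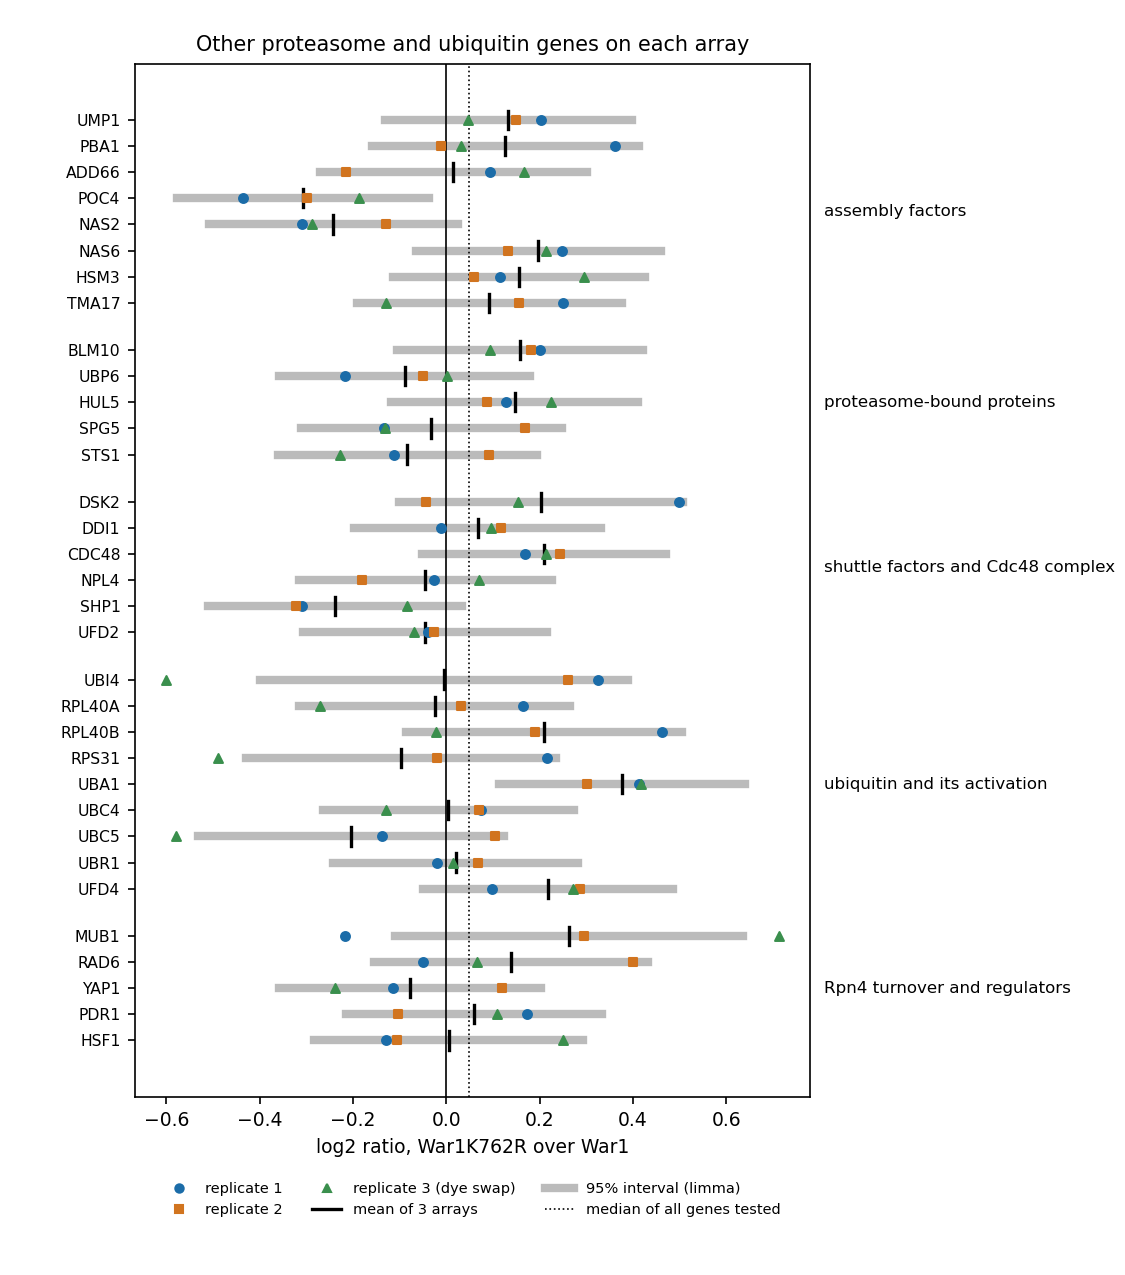
Log2 ratio of War1K762R over War1 (horizontal axis) for 33 other genes of the proteasome and ubiquitin system (vertical axis, by list), drawn as points for arrays, black bars for means, grey bars for 95% limma intervals and a dotted line for the median of all genes tested. UBA1 is above and POC4 below 0 on every array, and the values of UBI4 and MUB1 spread widest.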

How the data were processed

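RNA of 2 strains was set against each other on 3 two-colour arrays. The authors deposited 1 log2 ratio per spot. The sources used here do not give the scanner, ratio formula, spot filter or normalization. The base and direction were read from rounding. Raising 2 to each deposited value of size under 0.5 returned a number with 3 decimals for 100% of values in replicates 1 and 2, but for 10.2% in replicate 3 (100% after a change of sign). That column was therefore taken as inverted before deposit. The treatment text of 1 channel of replicates 1 and 2 names the mutant in the channel that its source name gives to War1, and the source names were used.

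Spots were named by the platform annotation (11146 of 13056 with 1 symbol, 0 with several, 1910 with none). All 34 members were found in the RefSeq table of the R64 assembly. Of the list genes, ADC17 is an alias of TMA17 and was counted once. No spot was named SEM1, so that gene was not analysed here.

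Arrays were centred on the median of all spots and spots averaged by gene. The mean ratio was tested against 0 with limma 3.58.1 (R 4.3.3, lmFit and eBayes, two-sided) over 3579 genes with Benjamini-Hochberg adjustment. The fit was tested on simulated data. Errors are the SD over n = 3 arrays, whose number limits the precision. The members and lists were chosen with earlier results of these data known. Members were named by their role, with array values for those past the test, with 1 sign on all arrays, or highest or lowest in their group, and single spots for those the text discusses. Of the other lists, genes past the test and the highest and lowest means were named; further list genes were chosen after their values were seen.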

Additional observations from a re-analysis of the deposited data

How the results depend on the processing

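Of the 33 proteasome genes, 0 passed in any of 10 other settings (limma, 330 values, smallest adjusted p = 0.187). The sign of the mean was kept in all of them by 21 genes, among them RPN4 and the whole alpha ring. RPN4 had both signs among its arrays, and its mean was −0.0048 without replicate 2. The settings reuse the same arrays, and without centring 33 of 33 genes kept their sign. The number of all genes past the threshold, 13 at first, was 26 without centring, 4 with centring on the genes tested, 117 with genes on at least 2 arrays, 3 with a dye term and 25 under array weights. Turning replicate 3 once more gave 0 (limma, 145 at an unadjusted p under 0.05). Leaving out 1 replicate gave 2 to 30, with 2 without replicate 1 and 30 without replicate 2. The members' median was −0.088 with centring on the genes tested, −0.078 with a dye term, 0.0092 with replicate 3 turned once more, and −0.074 to −0.039 on leaving out a replicate. With replicate 3 turned once more the core median was −0.017, the lid median −0.030, core minus base −0.054 and base minus lid 0.068. The lid median was −0.133 with centring on the genes tested, and core minus base was −0.139 under array weights. Leaving out 1 replicate gave 0.00081 to 0.071 for the base median, −0.110 to −0.089 for the lid and −0.162 to −0.104 for core minus base. The cause of these shifts was not tested.

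Means of 12 genes changed sign in some setting. On leaving out 1 replicate in turn, the means ran from −0.043 to 0.147 for PRE3, −0.050 to 0.043 for PUP1, −0.070 to 0.030 for PRE1, −0.146 to 0.050 for PRE2, −0.051 to 0.278 for PRE4 and −0.148 to 0.079 for RPT1. For RPT3 they ran from −0.0046 to 0.058, for RPT4 from −0.189 to 0.0062, for RPT6 from −0.019 to 0.181, for RPN9 from −0.109 to 0.096 and for RPN12 from −0.057 to 0.016. With replicate 3 turned once more the signs changed of PUP3 to 0.041, PRE1 to 0.065, PRE2 to 0.097, RPT1 to 0.141, RPT4 to 0.022 and RPN12 to 0.045. Array weights gave PUP1 0.0097 and RPT1 0.0088. Centring on the genes tested gave RPT3 −0.017 and RPN9 −0.026, and a dye term gave RPN9 −0.021. Each ratio already pairs the cultures of an array, so no further replicate block was fitted. Without intensities, how far a spot stood above background is not known here.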
